A study of Drosophila melanogaster with 5 samples.

Results

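Oxidative phosphorylation genes were followed across 5 microarrays of sorted cells, labelled as cholinergic neurons, of Drosophila melanogaster. They were the probe sets (groups of short oligonucleotides for 1 transcript) with a single annotated gene symbol that starts with ND-, Sdh, UQCR-, COX or ATPsyn, or that equals RFeSP, Cyt-c1 or Cyt-c-p. The rule took 71 of 13966 probe sets, for 69 of 10844 genes, and none of these probe sets was for Cyt-c-p. Neurons were labelled with green fluorescent protein through Cha-Gal4:UAS-GFP, in which 7.4 kb of regulatory DNA of the choline acetyltransferase gene drives the Gal4 activator, and were sorted by flow cytometry. By the labels, embryo culture, with 4 arrays named a, b, c and d, held neurons sorted from cultured embryonic cells. Larval brain (1 array) held neurons sorted from dissociated brain. Marker genes of other cells, given below, were also measured in these sorts. Both groups carry the same driver and reporter, and any cell that the driver marks would be in the sort. The labels give no strain, age or culture time, and do not say whether arrays a to d are separate cultures. A p-value here therefore rests on a spread that may be only technical.

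Oxidative phosphorylation is the last stage of respiration, carried out in the inner mitochondrial membrane. Complex I (NADH dehydrogenase) and complex II (succinate dehydrogenase) feed electrons into the chain, complex III (the cytochrome bc1 complex) passes them to cytochrome c, and complex IV (cytochrome c oxidase) hands them to oxygen. The proton gradient built on the way drives complex V, the ATP synthase. Neurons depend on this pathway for the ion pumping behind electrical activity, and in Drosophila several subunit genes have duplicates that are known for expression in the testis.

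Of the 69 genes, 51 encode canonical subunits: 26 of complex I, 3 of complex II, 5 of complex III, 7 of complex IV and 10 of complex V. A further 17 are duplicates, named after a canonical subunit with an added L, and 1, Sdhaf3, is an assembly factor of complex II. The brightest of 23 controls for sequences foreign to the fly set the background of each array, which ran from 119 to 271 in embryo culture and was 82.6 for the larval array. Above it on all 5 arrays lay 45 of the 51 canonical subunits and 6 of the 17 duplicates. COX7C was the 1 canonical subunit at or under background on every array, with signals between 11.6 and 38.4. The genes ATPsynG, ND-13B and COX6B share their probe sets with another gene in the annotation and were left out, and the core subunits SdhA, UQCR-C1 and UQCR-C2 were not analysed here.

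Most oxidative phosphorylation genes had a somewhat higher signal in larval brain than in embryo culture, and no single gene passed the test. Of all 69 genes, 45 had a positive log2 difference (larval brain minus embryo culture), with a median of 0.33. The canonical subunits were set apart from the duplicates after the values were seen. Of the 51, 41 had a positive difference and 10 a negative one, with a median of 0.47 (on log2 of the signal plus 47.4, which understates changes of dim genes) against -0.07 over all 10844 genes, of which 46.3% had a positive difference. The larval brain signal lay above all 4 embryo culture signals for 23 of the 51 and below all of them for 5. Over all genes 26.2% lay above and 29.6% below. The median moved with the embryo culture array it was set against: it was 0.73 against a, 0.59 against b, 0.04 against c and 0.44 against d, or 0.45 ± 0.30 (SD, n = 4 arrays).

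By limma, 0 of the 71 probe sets passed an adjusted p of 0.05 higher in larval brain, where 0.866% of all probe sets did, and 0 passed lower, where 2.39% did (3.26% in either direction). The lowest adjusted p among them was 0.108. At an unadjusted p under 0.05, 6 were higher and 1 was lower, which is 8.45% and 1.41% of them, against 8.21% and 7.83% of all probe sets (16.0% in either direction). The share of nominally higher probe sets was thus near that of the whole array. A positive difference was seen in 47 of the 71 (66.2%), against 46.0% of all probe sets. By position alone, with no test, 24 of the 71 (33.8%) lay above the embryo culture range, where 25.6% of all probe sets did, and 9 (12.7%) lay below it, where 28.6% of all probe sets did. Of the 45 canonical subunits above background on all 5 arrays, 35 were positive, 18 lay above the range and 5 below it. Among all probe sets with that brightness the shares were 48.4%, 29.3% and 32.0%. Without embryo culture array c the count above the range was 37, and without array a the count below it was 14. The SE of a member's log2 difference was 0.50 in the median. Over all probe sets no difference under 1.35 passed, and among the members larger ones failed too, up to 2.43 for ND-MWFE. A member that did not pass may therefore still differ between the groups.

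Measures of RNA quality and of other cells differed between the groups as well. The mean log2 ratio of 3′ to middle signal over 3 control messenger RNAs, an index that grows as the 5′ side of transcripts is lost, was 2.45 for a, 2.35 for b, 1.49 for c, 1.66 for d and 1.15 for larval brain. With this index as a covariate the median of the canonical subunits was 0.02 and 26 of the 51 were positive. With a 3′ over 5′ index in its place the median was -0.02 and 24 were positive. The larval brain index lies outside the embryo culture range, so these fits extrapolate. All 12 measured gut genes were negative and 6 of them passed, with a median of -2.59. Their summed signal was 30750.0 to 54509 over arrays a to d and 2102 in larval brain. Of 7 measured neuronal genes 0 passed and 6 were positive, with a median of 1.11. Their summed signal was 2444 to 6251 over arrays a to d and 9296 in larval brain. On arrays a to d the gut sum, over more genes, thus exceeded the neuronal sum, although the labels name sorted neurons. Of the neuronal genes, elav had the largest difference (3.33 ± 1.05). It was at or under background on arrays a and b, at 104 and 61.4, and stood at 713 and 667 on c and d and 3047 in larval brain. ChAT and ChT were above background on all 5 arrays and inside the embryo culture range, with differences of -0.07 ± 0.45 and 0.39 ± 0.57. Of 9 hemocyte genes 0 passed and 8 were negative, with a median of -1.86 and a summed signal of 1912 to 10807 against 1345 in larval brain. Of 7 muscle genes 0 passed and 6 were negative, with a median of -1.23 and sums of 772 to 5641 against 556.5. All 5 fat body genes were negative and 0 passed (sums 1375 to 1745 against 534), and of 7 glial genes 0 passed and 4 were negative (1679 to 2485 against 2068). All 5 DNA replication genes lay above the embryo culture range, where 26.2% of all genes did, with a median of 1.48, and 0 passed. These medians moved with the indices too. With the 3′ over middle and the 3′ over 5′ index the hemocyte median was 0.12 and 0.94, and the muscle median -0.40 and 0.20. In that order the neuronal median was 0.51 and -0.15, and the gut median -2.23 and -1.90. Fat body had -1.21 and -0.82, glia 0.089 and 0.11, and DNA replication 1.01 and 0.72. The part of the other cells in the differences below was not tested. In such sorted bulk samples, fewer cells of a type and less RNA per cell cannot be told apart.

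**Figure D1:**
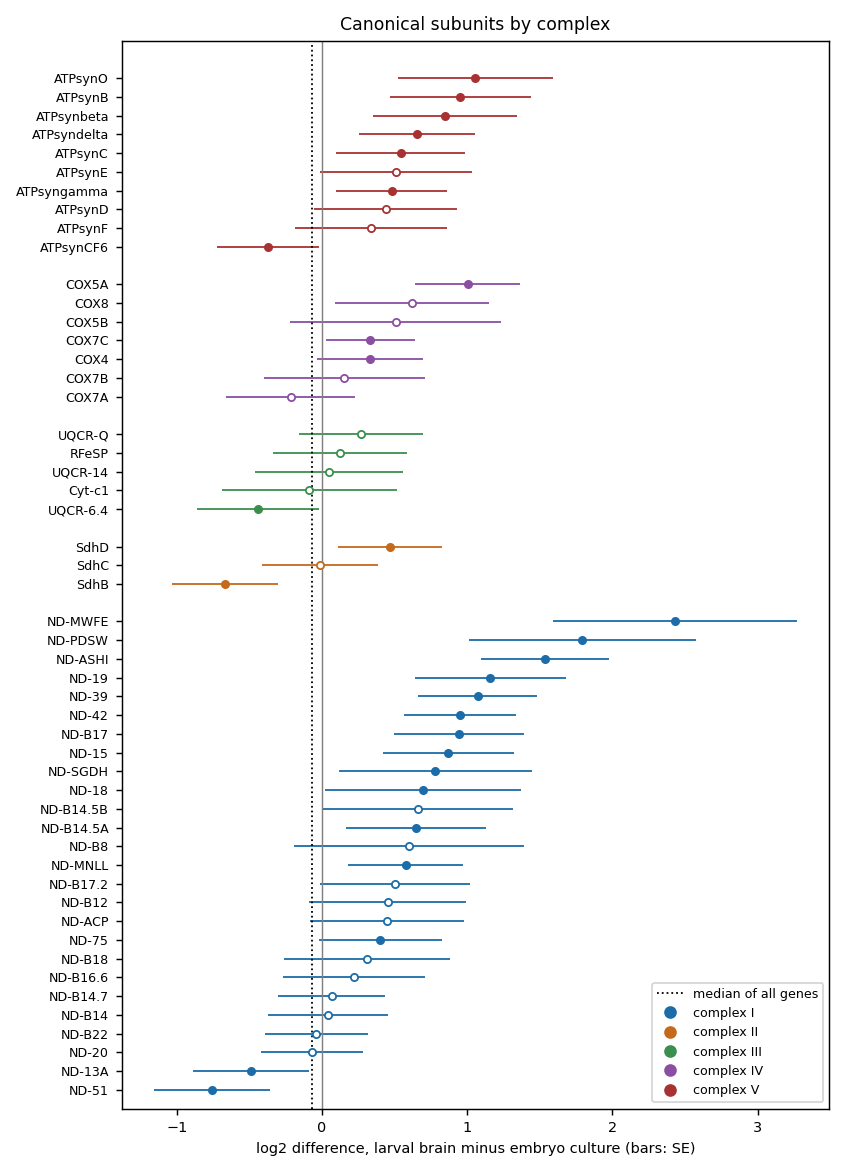
Log2 difference, larval brain minus embryo culture, of the 51 canonical subunits, grouped by complex, with the SE of limma as bars. Filled points are genes whose larval brain signal lies outside the range of the 4 embryo culture arrays, the dotted line is the median of all genes at -0.07, and most points of complexes I and V lie to the right of 0.

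Complex I had the most members and the widest spread of differences. Of its 26 canonical subunits 22 had a positive difference, with a median of 0.59 and a range from -0.76 to 2.43, and 13 lay above the embryo culture range against 2 below it. Including its 5 duplicates the median was 0.45. With the 3′ over middle index as a covariate the median of the 26 was 0.11, and with the 3′ over 5′ index it was -0.02. Of its subunits 0 passed the test, and 5 (19.2%) had an unadjusted p under 0.05 by limma, all of them higher in larval brain. Over all genes 8.47% were higher at that p, 26.2% lay above the embryo culture range and 29.6% below it. No test compared the complex with other genes.

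ND-MWFE, a small subunit of the membrane arm, had the largest difference of all members. Its signal was 243, 165, 964 and 872 over arrays a to d and 2589.9 in larval brain, a ratio of 4.62 to the embryo culture mean. The groups did not overlap, but arrays a and b were far below c and d, and b was under background. Its log2 difference of 2.43 ± 0.84 (SE) had an adjusted p of 0.189 by limma, and was -0.24 with the 3′ over 5′ index as a covariate. ND-PDSW, another membrane arm subunit, read 255, 463, 893 and 143 on arrays a to d and 1366 in larval brain. The embryo culture arrays were far apart, with array d under background and array c the highest, and the log2 difference of 1.79 ± 0.78 had an adjusted p of 0.301.

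ND-ASHI was the steadier case. Its signals were 609, 575, 727 and 427 in embryo culture and 1755 in larval brain, so that the lone larval array stood at 3.0 times the embryo culture mean of 584 ± 124 (SD, n = 4). Its log2 difference of 1.53 ± 0.44 had the lowest adjusted p of any member, 0.108, and its 95% interval ran from 0.54 to 2.53. ND-39, ND-42 and ND-19, named after their values were seen, showed the same order of groups. ND-39, of the matrix arm, stood at 661, 855, 1033 and 760.5 in embryo culture and 1768 in larval brain (log2 difference 1.07 ± 0.41, adjusted p = 0.234). ND-42, of the membrane arm, stood at 1405, 1576, 2211 and 1785 and at 3369.6 (0.95 ± 0.39, adjusted p = 0.267). ND-19 went from 654 ± 235 to 1447 (1.16 ± 0.52, adjusted p = 0.317). All 4 of these genes lay above every embryo culture array, as did 26.2% of all genes. ND-ASHI was named by a rule that required a larval brain signal outside the range. Their shared position thus follows from how they were chosen.

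The catalytic core of complex I was mixed in direction. Among the 3 core subunits named on the array, ND-51, which carries the NADH binding site, read 1123, 1391, 1836 and 1484 in embryo culture and 830.4 in larval brain, below all 4. Its log2 difference was -0.76 ± 0.40 (adjusted p = 0.411). ND-75, the largest iron-sulfur subunit, read 852, 750.4, 632 and 1013 and then 1073, a log2 difference of 0.40 ± 0.42. ND-20, an iron-sulfur subunit next to the quinone site, read 2881, 2989.5, 3105 and 2669.7 and then 2769, which is inside the embryo culture range (-0.07 ± 0.35, 95% interval -0.86 to 0.72). ND-13A, an accessory subunit of the matrix arm, was the other member of complex I besides ND-51 to lie below the range among canonical subunits, falling short of the test with 2014 ± 413 in embryo culture against 1398 (larval brain) (-0.49 ± 0.40).

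Grouped by place in the enzyme, a split made after the values were seen and given with no test, the 15 membrane arm subunits had a median difference of 0.78, and 14 of them were positive. The 10 matrix arm subunits had a median of 0.45, with 7 positive. Above the embryo culture range lay 9 of 15 and 4 of 10, against 26.2% of all genes. ND-ACP, the acyl carrier protein found in both arms, was counted in neither and had a difference of 0.45 ± 0.53. Against array c alone the medians of the arms were 0.23 and 0.05, and against array a 0.91 and 0.13. With the 3′ over middle index as a covariate they were 0.20 and -0.060, and with the 3′ over 5′ index 0.042 and -0.26.

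Complex V resembled complex I in its direction, with a narrower spread. Of its 10 canonical subunits 9 had a positive difference, with a median of 0.53 and a range from -0.37 to 1.06. Above the embryo culture range lay 6 of the 10 and below it 1, against 26.2% and 29.6% of all genes. None passed the test, and none had an unadjusted p under 0.05. With either 3′ index as a covariate the median was 0.21.

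Among canonical subunits of complex V, the largest difference was in the stalk that holds the catalytic head still. ATPsynO, the subunit that joins stalk and head, read 1792, 1711.0, 4377.5 and 1916 on arrays a to d and 4737 in larval brain (1.06 ± 0.53, adjusted p = 0.387). Array c was close to larval brain, and the other 3 arrays lay far lower and near one another. ATPsynB, also of the stalk, read 1449, 1578, 1508 and 710.4 and then 2468 (0.95 ± 0.49, adjusted p = 0.394), with array d as the low one. ATPsynbeta, which forms the catalytic sites, read 572, 431, 809.7 and 406 and then 1001 (0.85 ± 0.50, adjusted p = 0.467), above all 4 arrays. ATPsyngamma, the rotating shaft, read 3875, 4256, 2898 and 3751 and then 5119 (0.48 ± 0.38, adjusted p = 0.606). Larval brain stood above the whole embryo culture range for each of these 4 genes, as it did for 26.2% of all genes. ATPsynB was named by a rule that required a larval brain signal outside that range.

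ATPsynCF6, a further stalk subunit, was the exception in complex V. It read 2996, 2559.5, 2675 and 2764 in embryo culture and 2110.1 in larval brain, below all 4 arrays, with a log2 difference of -0.37 ± 0.35 (adjusted p = 0.668). ATPsynC, the proton-carrying ring, has 2 probe sets on the array, and their differences were 0.54 ± 0.45 and 0.73 ± 0.52, both above the range.

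In complex IV, 5 of the 6 canonical subunits above background were positive, with a median of 0.42. Of the 6, 2 lay above the range and 0 below it, against 29.6% and 32.2% of all genes that bright. With COX7C, which was under background throughout, the median of the 7 was 0.33, and with the 4 duplicates as well it was 0.15. With the 3′ over middle index as a covariate the medians of the 6 and of the 7 were -0.56 and -0.47. With the 3′ over 5′ index they were -0.79 and -0.71. COX5A, a nuclear-encoded subunit on the matrix side, read 1466, 1722, 1568 and 1929 in embryo culture and 3377 in larval brain, 2.02 times the embryo culture mean. The embryo culture arrays were close to each other, and the log2 difference of 1.0 ± 0.36 had a 95% interval of 0.18 to 1.82 and an adjusted p of 0.209. COX4, a subunit linked to regulation of the enzyme by ATP in mammals, read 3615, 3724, 3306 and 2996 and then 4283 (0.33 ± 0.36, adjusted p = 0.716).

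COX5B, another nuclear-encoded subunit, split the embryo culture arrays. Its signal was 1890.2 and 1767 on arrays a and b, 7027 and 5073 on c and d, and 4723 in larval brain, so that larval brain lay inside the embryo culture range. The log2 difference of 0.51 ± 0.73 became -1.21 with the 3′ over middle index as a covariate and -1.82 with the 3′ over 5′ index.

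Complexes II and III showed no shared direction. SdhB, the iron-sulfur subunit of complex II, read 3603, 3264, 3904 and 2897 in embryo culture and 2120.3 in larval brain, below every array (-0.67 ± 0.37, adjusted p = 0.436). SdhD, a membrane anchor, went the other way, from 1452 ± 103 to 2025, above every array (0.47 ± 0.36, adjusted p = 0.584). SdhC, the other anchor, was inside the range, with 1018, 1137, 1226 and 819 in embryo culture and 1030.3 for the larval array (-0.01 ± 0.40, 95% interval -0.91 to 0.89). The 3 subunits of 1 enzyme thus lay below, above and inside the embryo culture range, with a median difference of -0.01 and 0 calls. With the 3′ over middle index as a covariate the median was 0.02, and with the 3′ over 5′ index 0.15.

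In complex III, 4 of the 5 canonical subunits lay inside the range, the median difference was 0.05 and 0 passed. RFeSP, the Rieske iron-sulfur protein, read 1121, 1044, 571 and 962 in embryo culture and 983 in larval brain (0.13 ± 0.46). Cyt-c1, which gives electrons to cytochrome c, read 1096, 845, 2863 and 1843 and then 1401 (-0.09 ± 0.60). Array c held the lowest RFeSP and the highest Cyt-c1 signal. UQCR-6.4, a small accessory subunit, was below the range at 3124 ± 799 and 2235 (-0.44 ± 0.42, adjusted p = 0.675). With the 3′ over middle index as a covariate the median of the 5 was -0.88, and with the 3′ over 5′ index it was -1.28.

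**Figure D2:**
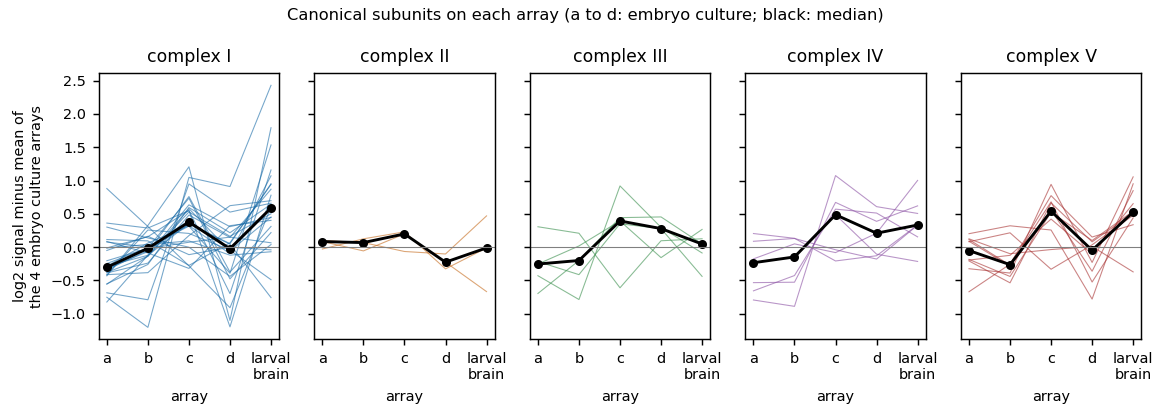
Log2 signal of each canonical subunit on each array, minus the mean of its 4 embryo culture arrays, with a panel for each complex (coloured lines join the values of 1 gene, black points are the median). The black points are highest on array c within embryo culture in all 5 panels, at 0.38 for complex I and 0.54 for complex V, and the larval brain medians are 0.59 and 0.53.

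The embryo culture arrays also differed among themselves in these genes. Array c held the highest of the 4 embryo culture signals for 34 of the 51 canonical subunits (66.7%), against 20.6% of all genes. The median deviation from the mean of the 4 arrays was -0.22 on a, -0.07 on b, 0.40 on c and 0.00 on d, where all genes had -0.03, 0.00, -0.09 and 0.09. Relative to all genes the canonical subunits were thus high on array c. For 28 of the 71 member probe sets (39.4%) both c and d lay above both a and b, which held for 22.4% of all probe sets. The reverse order held for 12 (16.9%), against 21.7%. The marker lists split the same arrays: all 9 hemocyte genes had a and b above c and d, and 5 of the 7 neuronal genes had c and d above a and b. Their part in the split of the subunits was not tested. The median SD over the 4 arrays on the log2 scale was 0.18 for complex II subunits, 0.40 for complex I, 0.42 for complex III, 0.33 for complex IV and 0.46 for complex V. For all genes, dim ones included, it was 0.47. Among genes above background on all 5 arrays it was 0.39. Subunits that bright had 0.31 in complex I, 0.18 in II, 0.42 in III, 0.48 in IV and 0.46 in V.

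Against array c, the larval brain signal was higher for 27 of the 51 canonical subunits, and against a, b and d for 42, 40 and 39. By complex, the median difference against array c was 0.12 for I, -0.24 for II, -0.40 for III, -0.05 for IV and 0.06 for V. Against array a it was 0.87, 0.02, 0.34, 0.81 and 0.74 in the same order. Complexes I and V were thus positive against each of the 4 arrays, and complexes II, III and IV were not.

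**Figure D3:**
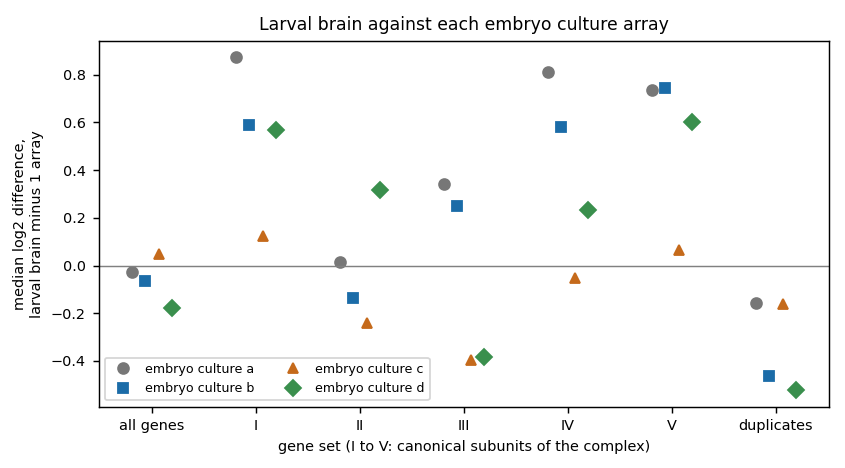
Median log2 difference of larval brain minus each single embryo culture array, for all genes, for the canonical subunits of complexes I to V and for the duplicates. Each symbol is 1 embryo culture array; for complexes I and V the median is 0.12 and 0.06 against array c and at least 0.57 against the other 3.

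Of the 17 duplicates, 6 were above background on all 5 arrays. Of these 6, 5 had a negative difference, with a median of -0.47. Above the embryo culture range lay 0 of the 6 and below it 2, against 29.6% and 32.2% of all genes that bright. Over all 17, dim ones included, 14 were negative and the median was -0.29, but 7 of the 17 have no measured level: SdhAL, SdhCL, UQCR-14L, COX5BL, COX6AL2, COX7AL and ATPsynGL were at or under background on all 5 arrays. SdhBL was above background in larval brain alone, at 86.8, on the array with the lowest background (82.6). Its embryo culture signals of 29.7, 133, 102.5 and 137 lay under the higher backgrounds of arrays a to d, so no order is set. COX4L was above background only on embryo culture arrays a and b, at 177 and 200.9.

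Among the duplicates above background on all 5 arrays, ATPsynepsilonL had the largest difference and was the 1 member with a lower signal at an unadjusted p under 0.05. It read 529, 357, 695 and 797 in embryo culture and 156 in larval brain, which is 3.80 times lower than the embryo culture mean. All 4 arrays lay above larval brain, and the log2 difference was -1.60 ± 0.55 (adjusted p = 0.184). ND-B14.5AL read 620.5, 627, 557 and 739 and then 442, also below all 4 (-0.48 ± 0.43, adjusted p = 0.655). ATPsynbetaL, ND-20L, ND-51L1 and ND-24L lay inside the embryo culture range. ATPsynbetaL read 1095, 1555, 929.9 and 599 in embryo culture and 800.0 in larval brain (-0.29 ± 0.51).

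Canonical subunit and duplicate could differ in direction within a pair. ATPsynCF6 lay below the range while ATPsynCF6L was above background only on array a, at 322, and in larval brain, at 279. ND-B14.5A had a difference of 0.64 ± 0.48 and its duplicate ND-B14.5AL one of -0.48 ± 0.43, and neither passed. ND-51 and its duplicates ND-51L1 and ND-51L2 were all negative, at -0.76 ± 0.40, -0.47 ± 0.63 and -0.15 ± 0.66. Sequence shared between a gene and its duplicate can add signal from one to the probes of the other, which was not tested. Of 9 measured testis and germline genes 8 were negative, 1 of them, Mst98Ca, passed, and 3 of the 9 were at or under background on all arrays. The summed signal of that list was 1454 to 2627 over arrays a to d and 1196 in larval brain. The assembly factor Sdhaf3 was above background on array c, at 243, and in larval brain, at 179, and on no other array.

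**Figure D4:**
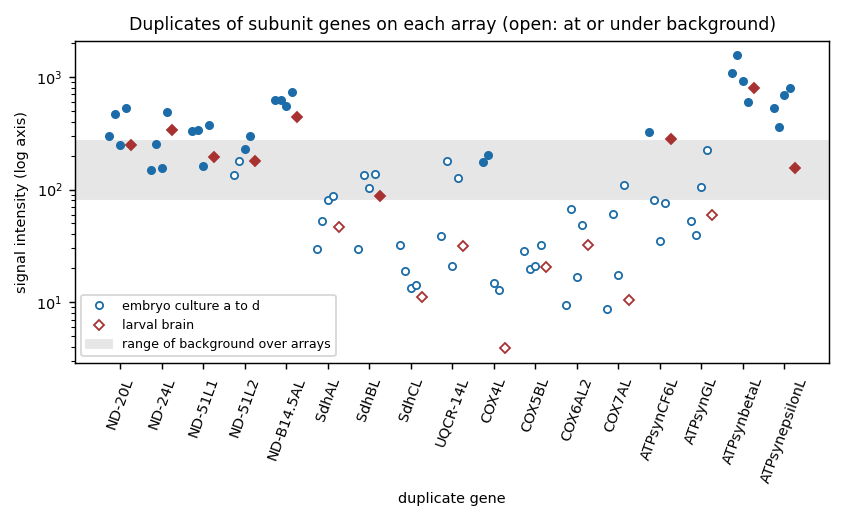
Signal intensity of the 17 duplicates on each array, on a log axis, with embryo culture arrays a to d as circles from left to right and larval brain as diamonds. Open symbols are at or under the background of their own array, the grey band spans the background values from 82.6 to 271, and 7 genes have open symbols on every array.

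Subunits with names outside the rule were measured as well. Of 5 such genes 0 passed, 3 had a positive difference and the median was 0.07 (-0.68 with the 3′ over middle index and -0.47 with the 3′ over 5′ index). blw, the alpha subunit of the ATP synthase head, read 6357 ± 1944 in embryo culture and 5659.5 in larval brain (-0.12 ± 0.46), while its partner ATPsynbeta had 0.85 ± 0.50. cype, a subunit of complex IV, read 14404, 13953, 12275 and 10279 and then 6333, below all 4 arrays (-0.99 ± 0.45, adjusted p = 0.323). ox, a subunit of complex III, stayed inside the range (0.07 ± 0.50). Of 9 further assembly factors 0 passed, with a median of 0.32 (0.0037 and -0.064 with the same indices). Nubpl, which serves complex I assembly, read 5128, 3584, 1692 and 1569 and then 984.5 (-1.39 ± 0.63, adjusted p = 0.325), and Scox, a copper factor of complex IV, stood at 477 ± 75.2 and 966, above the range (0.96 ± 0.45, adjusted p = 0.344).

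In the tricarboxylic acid cycle 0 of 9 genes passed, 7 had a positive and 2 a negative difference, and the median was 0.31. It was 0.45 with the 3′ over middle index and 0.26 with the 3′ over 5′ index. Idh3a, a subunit of the isocitrate dehydrogenase that makes NADH, read 309, 299.5, 1033 and 764 in embryo culture and 4003.5 in the larval sample, 6.66 times the embryo culture mean, with a log2 difference of 2.82 ± 0.66 and an adjusted p of 0.0567. ScsbetaA, of succinyl-CoA synthetase, was lower, at 6424 ± 2691 and 2308 (-1.37 ± 0.51, adjusted p = 0.219), and mAcon1, the aconitase, was at 2364 ± 536 and 2371. Ogdh, named after its values were seen, lay below all 4 arrays, at 1749 ± 446 and 553 (-1.55 ± 0.42, adjusted p = 0.0921 by limma).

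In glycolysis 0 of 8 genes passed, 7 had a negative difference and the median was -0.43 (-1.26 with the 3′ over middle index and -1.48 with the 3′ over 5′ index). Gapdh1 read 5029.5, 6115, 15256 and 10016 in embryo culture and 2091 in larval brain, below all 4 arrays (-1.96 ± 0.60, adjusted p = 0.130). Ald1 and Eno, the aldolase and the enolase, were inside the range, and both were lower on arrays a and b than on c and d. The glycolysis median was 0.10 and -0.13 against arrays a and b and -1.11 against both c and d. Pfk, the committed step, named after its values were seen, was steadier, at 2555 ± 305 and 900.5 (-1.45 ± 0.36, adjusted p = 0.0708).

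Among 10 carriers and porins 0 passed, with a median of -0.27 (-0.60 and -0.59 with the same indices, and -0.57 without dim probe sets). Porin, the outer membrane channel, was inside the range at 9277 ± 2977 and 8877. Mpcp2, which imports phosphate, read 6488, 6517, 6303 and 3346 and then 2398 (-1.17 ± 0.47, adjusted p = 0.260). sesB, the ADP/ATP exchanger, read 6039, 5826, 5772 and 2599.8 and then 2288 (-1.05 ± 0.52, adjusted p = 0.369). Both lay below all 4 arrays, with array d close to larval brain. Of 7 genes for mitochondrial DNA and its transcription 0 passed, with a median of 0.53. The median was 0.32 without array a, 0.055 with the 3′ over middle index as a covariate and -0.073 with the 3′ over 5′ index. TFAM, the packaging and transcription factor, read 775, 840.1, 872 and 866 and then 1370.1 (0.68 ± 0.38, adjusted p = 0.443). PolrMT, the mitochondrial RNA polymerase, stood at 904 ± 196 and 1206, and mtSSB, the single-strand binding protein, at 1532 ± 628 and 1398.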

How the data were processed

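The deposited table holds linear intensity values, 1 per probe set on each of 5 arrays, and after trimming 2% at each end all arrays had a mean of 499.7, so they share a scale. The sources used here name no software or background correction. Of 14010 probe sets, 44 controls were left out. GEO's platform annotation gave 12443 probe sets 1 symbol, 327 several and 1196 none. Intensities were analysed as log2(intensity + 47.4), the 20th percentile of all values, with no filter, by limma 3.58.1 in R 4.3.3 (lmFit, eBayes with trend, two-sided, Benjamini-Hochberg over 13966 probe sets). Larval brain has 1 array, assumed to vary like the 4 embryo culture arrays, and an exact permutation test could not go below p = 0.2. For genes with more than 1 probe set the brightest one was taken. Intervals are 95% limma intervals. Genes named were core subunits, the largest rises and falls per complex outside the embryo culture range, duplicates, assembly factors and, of other lists, the brightest or called members. The symbols ND-39, ND-42, ND-19, ND-ACP, ND-B14.5A, ATPsynC, COX7C, Pfk and Ogdh were added after their values were seen. Alternatives changed the pseudocount, scaling, filter, variance trend, probe set rule, 3′ index and arrays used. Members and lists were chosen with earlier results of these data known. The number of arrays limits the precision.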

Additional observations from a re-analysis of the deposited data

Results flagged for a closer look

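In 6 of the 69 genes 1 embryo culture array stood apart from the other 3, by the gap to its nearest neighbour as a share of the whole range on the log2 scale. Chance gives this in about 1 of 20 groups of independent, normally spread values. The members share shifts between arrays, and the share over all genes was not counted, so the 6 are only described. Array c was high for ATPsynO (share 0.88, signal 4377.5) and ATPsyndelta (0.854, 4660.0) and low for ND-B17 (0.876, 375) and ND-51L1 (0.838, 161). Array d was low for ATPsynB (0.892, 710.4) and ND-SGDH (0.85, 206.5).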

How the results depend on the processing

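No member passed the test under any of the 12 alternatives that repeat the test (averaging probe sets of a gene gave medians alone). The median of complex V stayed positive in all alternatives, those of the members and of complex I in all but the fits with an index of 3′ bias. With the 3′ over middle index the median was -0.042 for members, 0.020 for canonical subunits (26 positive), -0.0057 for complex I, -0.57 for complex III and -0.10 for complex IV; with the 3′ over 5′ index it was -0.14, -0.025 (24 positive), -0.073, -0.96 and -0.25. The medians of single complexes given here include duplicates, and that of complex V fell from 0.50 to 0.21 in both. The cause was not tested. Leaving dim probe sets out put complex IV at 0.42. Leaving out 1 embryo culture array gave -0.065 to 0.27 for complex IV, 24 to 37 members above the range and 10 to 14 below it. Median centring moved the median of all genes from -0.07 to 0.05, and leaving dim probe sets out to 0.14. Centring left 3 canonical subunits below the range. It also turned the sign of ND-20 (0.053), SdhC (0.11) and Cyt-c1 (0.034). The 3′ over middle index turned SdhC (0.020), COX5B (-1.21) and ATPsynbetaL (0.38), and the 3′ over 5′ index turned ND-24L (-0.49), ND-MWFE (-0.24), SdhC (0.15), COX5B (-1.82) and ATPsynbetaL (0.76). Without 1 array, ND-51L2 ran from -0.30 to 0.0061, SdhC from -0.12 to 0.065, Cyt-c1 from -0.35 to 0.22 and RFeSP from -0.078 to 0.23. The counts and medians of canonical subunits and duplicates were alternatives chosen after seeing the data. No paired analysis was possible because the groups share a single replicate letter. Signals under background set no order.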
